A study of Mus musculus with 16 samples.

Results

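The genes described here are 41 genes of mesenchymal transition and contractility, taken by name from a table of 52636 mouse genes. They comprise 6 transition factors, 11 cytoskeletal genes, 8 S100, galectin and annexin genes, 5 adhesion and matricellular genes, 7 fibroblast or mural genes and 4 genes of matrix processing. All 41 were in the table and all 41 passed the filter on low counts, together with 19646 genes in all. Their levels were read in 16 poly(A) RNA sequencing libraries of sorted mouse endothelial cells from liver, lung and heart. Liver and lung each had 3 libraries of the Erg and Fli1 double knockout (titled KO) and 3 of wild type (titled Control), and heart had 2 of each. Tamoxifen had been given to induce the deletion, and all tissues were taken at day 10. The labels and methods at hand name no driver of the recombinase, nor do the labels say that every library came from a separate animal, so p-values may measure technical spread in part. Cells had been sorted as negative for CD45 and positive for CD31 and for VE-cadherin, which an antibody had marked in the living animal.

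Endothelial-to-mesenchymal transition is the process in which endothelial cells lose junctional and endothelial genes and gain genes of contractile or matrix-producing cells. The Snail, Twist and Zeb factors are transcription factors known to drive it and its epithelial counterpart, and transforming growth factor beta is its best known inducer. Contractile and actin-binding genes such as Acta2, Tagln and Cnn1 mark smooth muscle and myofibroblasts, and many of them are targets of serum response factor. The products of Erg and Fli1 belong to the ETS family of DNA-binding proteins, which recognise a GGAA core and maintain endothelial gene expression.

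Total counts ran from 30226340 to 41449054 per library. Erg, read over the whole gene, was at 131 to 165 CPM (the count scaled by total and TMM factor) in KO against 337 to 371 CPM in Control liver, at 164 to 224 against 259 to 276 CPM in lung, and at 155 to 158 against 204 to 229 CPM in heart. It fell in liver (log2 change -1.31, adjusted p = 1.54e-05) and lung (-0.52, adjusted p = 0.0231) and did not pass in heart (-0.47, adjusted p = 0.0538), by edgeR's quasi-likelihood test with Benjamini-Hochberg adjustment, which gives every adjusted p below. Fli1 was not lower in any tissue and was higher in KO lung (0.69, adjusted p = 0.0131). The sources used here do not give the deleted exons, so counts over whole genes cannot check the deletion, and KO below means the libraries labelled so. Of the genes sorted on, Cdh5 (VE-cadherin) and Pecam1 (CD31) did not pass in any tissue, and Cdh5 stayed at 1603 CPM or more in every library. Pecam1 came near the threshold in lung (-0.59, adjusted p = 0.0575), at 1391 to 2089 CPM in KO and 2543 to 2646 CPM in Control. By the Y-linked gene Ddx3y, 5 libraries were male (at least 107 CPM, against at most 0.176 CPM in the others): number 2 of each liver and lung group and heart KO 2, so that both heart Controls were female. The heart Control titled 2 is numbered 3 in its description, and by the numbers of the descriptions every library numbered 2 was male and no other was. The labels do not say whether libraries of 1 number and genotype came from 1 animal. If they did, the comparisons between tissues are not between independent samples. Liver KO 3 stood apart in mural genes, as given with them below.

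More of the 41 genes rose than fell in each tissue. The 41 were chosen with earlier results of these data known, so the counts below are no independent test of the set. Where groups are said below to be separate or not to overlap, this describes the libraries only. The share of all tested genes with separate groups was not computed, so separation adds no support to a call. In KO liver 18 of the 41 rose and 1 fell, where 19.4% of all tested genes passed, 9.54% higher and 9.87% lower. In KO lung 8 rose and none fell, against 8.46% of all tested genes, 4.35% higher and 4.11% lower. In KO heart 22 rose and 1 fell, against 19.3% of all, 10.2% higher and 9.09% lower. The 22 include S100a4, which passed the filter on low counts only through KO heart. The median log2 change of the 41 was 0.66 in liver, 0.26 in lung and 1.11 in heart, and that of all tested genes was 0.02, -0.02 and 0.01. Without heart Control 1 the heart counts were 14 higher and 1 lower, and without heart KO 2, the male library, they were 16 higher and 1 lower. Without liver KO 3 the liver counts were 16 higher and 3 lower, and the lung counts 8 higher and 3 lower. With each tissue fitted alone, 15 rose and 1 fell in liver, 7 rose and 4 fell in lung, and 25 rose and 2 fell in heart. In those fits 21.5%, 10.5% and 20.4% of all tested genes passed.

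Across tissues, 31 of the 41 genes passed in at least 1. Flna, Tpm1, S100a10, Ccn2 and Tgfbi rose in all 3. Another 8 rose in exactly 2: Vim, S100a6, S100a11, Anxa2, Lox and Loxl2 in liver and heart, and Snai1 and Zeb1 in lung and heart. Snai2 was the 1 gene that fell, in liver and heart. None rose in one tissue and fell in another by the fit of all tissues. With each tissue fitted alone, Acta2 and Postn passed as higher in heart and lower in lung. Acta2, Tagln, Cnn1, Tpm2, Cdh11, Pdgfrb, Postn, Notch3, Des and Twist2 passed in none, and this set holds Acta2, Tagln and Cnn1, the classical contractile markers.

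**Figure D1:**
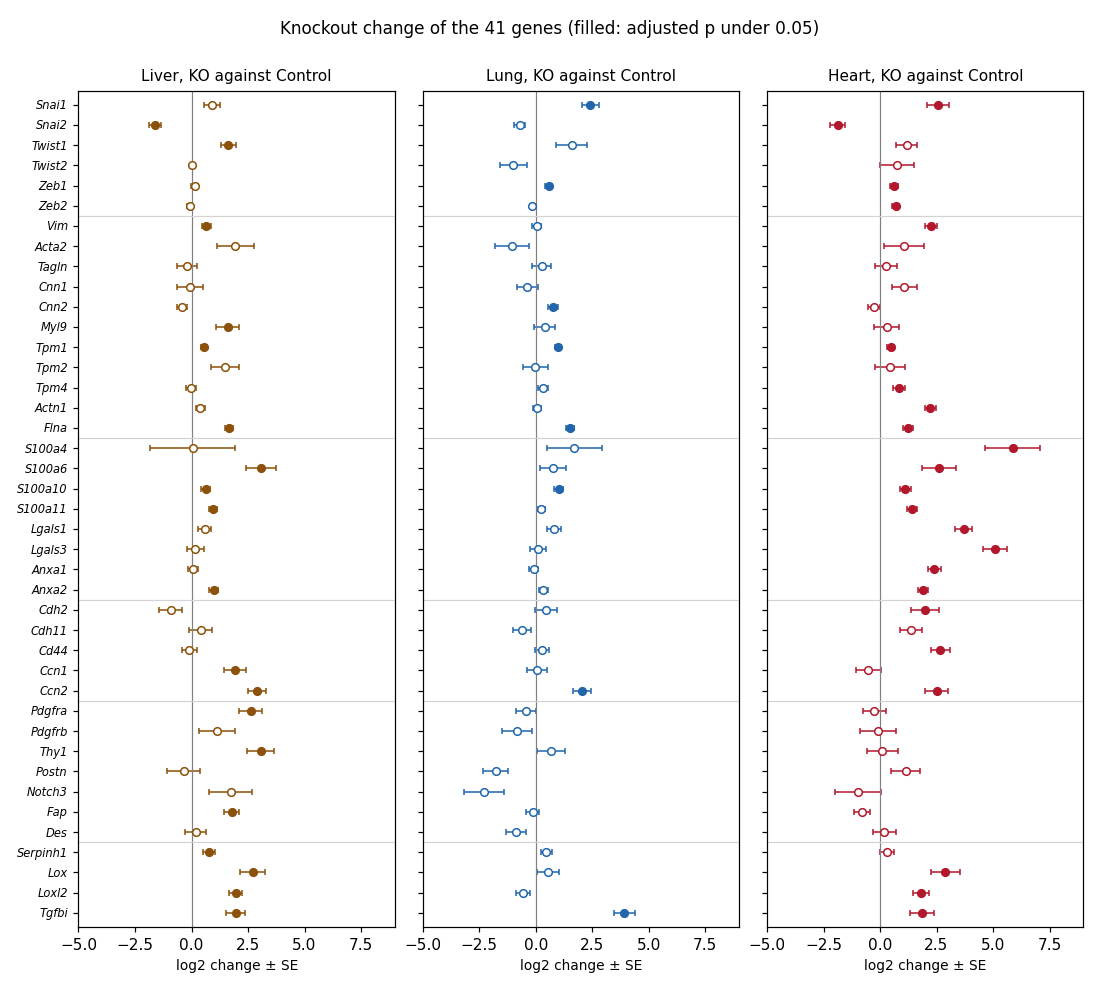
Log2 change of each of the 41 genes in KO against Control endothelium of liver, lung and heart, with its standard error. Filled points have an adjusted p under 0.05, and grey lines divide the 6 groups of genes. In the heart panel all 8 S100, galectin and annexin genes lie to the right with filled points, while the 7 fibroblast or mural genes are open. Of the 8, S100a4 passed the filter on low counts only through KO heart.

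Flna encodes filamin A, which crosslinks actin filaments and ties them to the membrane, and it rose in every tissue. In liver Flna had 612, 592 and 782 CPM in KO and 248, 194 and 186 CPM in Control libraries (log2 change 1.66, SE 0.185, adjusted p = 3.4e-05). In lung the levels were 1000, 1047 and 1377 CPM in KO and 393, 400 and 404 CPM in Control (1.52, SE 0.184, adjusted p = 0.00029). In heart they were 2671 and 2055 CPM in KO and 1136 and 885 CPM in Control (1.23, SE 0.223, adjusted p = 0.0021). Every KO library lay above every Control of its tissue, and all 3 calls held when any 1 of the 16 libraries was left out.

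Tpm1, a tropomyosin that lies along actin filaments, rose by smaller amounts. Liver had 153, 135 and 168 CPM of Tpm1 in KO against 114, 93.2 and 103 CPM in Control (log2 change 0.55, SE 0.115, adjusted p = 0.00392). Lung had 241, 272 and 281 CPM in KO against 146, 124 and 133 CPM in Control (0.98, SE 0.116, adjusted p = 0.000256). Heart had 388 and 349 CPM in KO against 273 and 260 CPM in Control (0.47, SE 0.141, adjusted p = 0.0332). The groups did not overlap in any tissue, but the heart call was lost when any 1 of the 4 heart libraries was left out (adjusted p up to 0.172), when heart was fitted alone (0.0773) and with no filter on low counts (0.062).

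S100a10 encodes the small calcium-binding family protein that pairs with annexin A2. Its liver levels were 153, 183 and 139 CPM in KO and 105, 105 and 96.3 CPM in Control (log2 change 0.63, SE 0.197, adjusted p = 0.0374). Its lung levels were 142, 200 and 165 CPM in KO and 100, 69.5 and 79.5 CPM in Control (1.02, SE 0.198, adjusted p = 0.00601). Its heart levels were 214 and 354 CPM in KO and 114 and 149 CPM in Control (1.11, SE 0.243, adjusted p = 0.00641). The KO libraries lay above the Controls in all 3 tissues. The liver call was lost without liver KO 1 or 2 or any 1 of the liver Controls (adjusted p up to 0.119), and the heart call without heart KO 2 or heart Control 1 (up to 0.0751).

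Ccn2 encodes connective tissue growth factor, a secreted matricellular protein and a known target of transforming growth factor beta and of the YAP coactivator. In liver it had 623, 578 and 881 CPM in KO against 76.6, 61 and 142 CPM in Control (log2 change 2.90, SE 0.416, adjusted p = 0.000274). In lung Ccn2 had 311, 223 and 664 CPM in KO against 86.9, 107 and 95.8 CPM in Control (2.05, SE 0.403, adjusted p = 0.00651). In heart it had 416 and 306 CPM in KO against 44 and 83.8 CPM in Control (2.5, SE 0.502, adjusted p = 0.00376). Groups were separate in each tissue, with lung KO 3 the highest of its group. Without heart Control 1 the heart call missed the threshold (adjusted p = 0.052). Gm15270, on the opposite strand, overlaps 23.24% of the exon bases of Ccn2, and it held at most 109 counts in any library.

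Tgfbi, a secreted matrix protein named for its induction by transforming growth factor beta, had its highest fold in lung. Lung levels were 293, 363 and 117 CPM in KO and 19.9, 13.9 and 17.7 CPM in Control (log2 change 3.91, SE 0.459, adjusted p = 0.000239). Liver levels were 110, 227 and 192 CPM in KO and 38, 59.3 and 38.2 CPM in Control (1.96, SE 0.422, adjusted p = 0.00481). Heart levels were 94.4 and 103 CPM in KO and 14.5 and 40.2 CPM in Control (1.85, SE 0.517, adjusted p = 0.023). No KO library overlapped a Control in any tissue. The lung change exceeded the liver change by 1.95 log2 units (SE 0.584), which did not pass (adjusted p = 0.067). The heart call was lost without either heart KO library or heart Control 1 (adjusted p up to 0.175), and the heart change was 2.77 without heart Control 2.

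**Figure D2:**
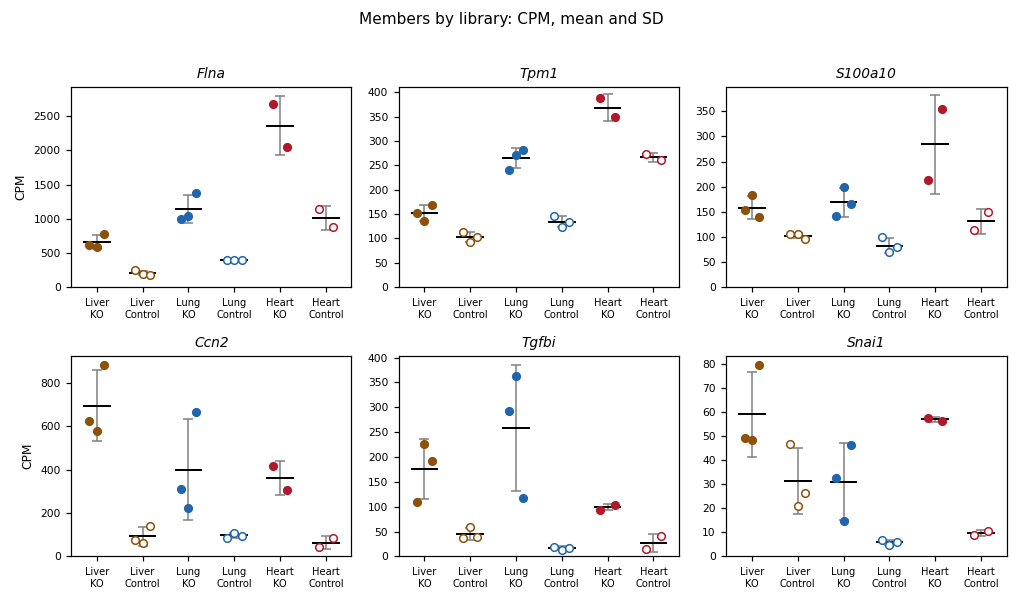
Levels of the 5 genes that rose in all 3 tissues, and of Snai1, in CPM per library. Points are libraries (filled KO, open Control), lines are group means and bars are SD. For Flna, Tpm1, S100a10, Ccn2 and Tgfbi each KO group lies wholly above its Control group.

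The promoters of the members that changed in the same direction in at least 2 tissues, taken in order of the product of their p-value ranks and as far as RefSeq's table of promoters (GRCm38.p6) held one, were those of Flna, Tgfbi, Tpm1 and Anxa2. They are shown to let the GGAA cores of the ETS family be seen at the starts that RefSeq's table gives. For Flna that start lies inside the gene as GENCODE M21 has it, whose 5′ end is at 74249820, and for Tpm1 the 5′ end in GENCODE M21 is at 67049406. Each covers 250 bases before to 50 after the start on the gene's own strand: chrX:74246485-74246784 on the minus strand for Flna, chr13:56609336-56609635 on the plus strand for Tgfbi, chr9:67049164-67049463 on the minus strand for Tpm1 and chr9:69453433-69453732 on the plus strand for Anxa2. Capitals mark GGAA, or TTCC where the core is on the other strand.
Flna: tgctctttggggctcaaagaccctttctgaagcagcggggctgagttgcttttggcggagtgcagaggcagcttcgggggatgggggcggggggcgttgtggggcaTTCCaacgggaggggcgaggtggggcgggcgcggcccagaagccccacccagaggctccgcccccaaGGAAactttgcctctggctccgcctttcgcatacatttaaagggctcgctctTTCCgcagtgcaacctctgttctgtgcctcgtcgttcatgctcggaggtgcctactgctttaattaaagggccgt
Tgfbi: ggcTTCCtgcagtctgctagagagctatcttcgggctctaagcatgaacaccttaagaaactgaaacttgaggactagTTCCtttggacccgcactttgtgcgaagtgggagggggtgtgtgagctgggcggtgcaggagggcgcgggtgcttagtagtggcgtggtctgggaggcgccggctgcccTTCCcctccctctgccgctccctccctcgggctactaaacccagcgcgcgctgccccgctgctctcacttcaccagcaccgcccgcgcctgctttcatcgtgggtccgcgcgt
Tpm1: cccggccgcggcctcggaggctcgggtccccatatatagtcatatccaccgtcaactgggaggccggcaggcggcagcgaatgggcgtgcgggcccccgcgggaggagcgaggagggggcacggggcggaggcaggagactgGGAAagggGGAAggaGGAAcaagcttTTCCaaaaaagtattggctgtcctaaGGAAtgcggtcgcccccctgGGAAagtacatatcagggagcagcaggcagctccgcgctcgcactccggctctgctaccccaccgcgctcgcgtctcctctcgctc
Anxa2: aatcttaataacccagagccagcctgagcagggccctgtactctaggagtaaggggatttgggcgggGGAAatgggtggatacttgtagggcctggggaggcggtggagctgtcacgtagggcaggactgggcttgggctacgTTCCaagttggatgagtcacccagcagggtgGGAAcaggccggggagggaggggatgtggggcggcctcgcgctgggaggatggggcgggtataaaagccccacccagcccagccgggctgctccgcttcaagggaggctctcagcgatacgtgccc
The Tpm1 promoter held 6 such cores and the other 3 promoters held 3 each. So short a core is common, and 96.0% of the 32851 promoters of the table held it, as did 93.8% of the 32 promoters of 28 members. The median number of cores was 4 in the members' promoters and 3 in all promoters. The CArG box, the motif of serum response factor, was searched only in its strict form: CC, 6 bases of A or T, and GG. That form was in 6.25% of members' promoters (those of Cnn2 and Myl9) and in 1.63% of all. Looser forms were not searched. The E-box CAGGTG, searched on both strands and known as a Snail and Zeb motif, was in 9.38% of members' promoters (those of Lgals3, Myl9 and Snai1) and in 20.2% of all. Neither motif, in the form searched, was in the 4 promoters shown. These matches describe the letters of this window and were not tested for binding.

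Among the 6 transition factors, Snai1, Zeb1, Zeb2 and Twist1 rose in 1 or 2 tissues each, Snai2 fell in 2 and Twist2 passed in none. Counts were 1 higher and 1 lower in liver, 2 higher in lung, and 3 higher and 1 lower in heart, with median log2 changes of 0.07, 0.20 and 0.72. Of all tested genes, 9.54% rose and 9.87% fell in liver, 4.35% and 4.11% in lung, and 10.2% and 9.09% in heart. These shares stand beside the counts of this and each other group of members below, where a count of 1 says little. Snai1 is a zinc finger repressor of cadherin genes. Its lung levels were 32.7, 14.6 and 46.4 CPM in KO and 6.86, 4.79 and 6 CPM in Control (log2 change 2.41, SE 0.384, adjusted p = 0.00166). In heart they were 57.9 and 56.4 CPM in KO and 8.88 and 10.5 CPM in Control (2.56, SE 0.469, adjusted p = 0.00214). Liver KO had 49.4, 48.6 and 79.8 CPM of Snai1, and liver Control 46.9, 20.9 and 26.6 CPM. Every KO library exceeded every Control there too, but liver Control 1 came near, and the liver change did not pass (0.91, SE 0.362, adjusted p = 0.0968). It passed without liver Control 1 (1.33, adjusted p = 0.0318) and without lung KO 2 (0.91, adjusted p = 0.036).

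Snai2, the close relative of Snai1, moved the other way. Liver had 5.38, 4.29 and 2.94 CPM of Snai2 in KO against 11.7, 15.8 and 10.9 CPM in Control (log2 change -1.60, SE 0.257, adjusted p = 0.000607). Heart had 5.33 and 6.12 CPM in KO against 18.8 and 23.3 CPM in Control (-1.88, SE 0.314, adjusted p = 0.00116). Lung, with 2.86, 2.49 and 1.56 CPM in KO against 3.78, 3.71 and 3.9 CPM in Control, did not pass (-0.72, SE 0.258, adjusted p = 0.109). KO libraries lay below Controls in all 3 tissues, and the liver and heart calls held when any 1 library was left out.

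Twist1 and Twist2 are basic helix-loop-helix factors, and Twist1 was chiefly a liver gene here. Liver had 112, 135 and 73.7 CPM of Twist1 in KO against 28.6, 27.6 and 47.1 CPM in Control (log2 change 1.64, SE 0.349, adjusted p = 0.0046). In heart it had 5.31 and 4.17 CPM in KO against 2.03 and 2.13 CPM in Control, which did not pass (1.19, SE 0.461, adjusted p = 0.0892) but did without lung KO 1 (adjusted p = 0.0308), in heart fitted alone (0.048) and by DESeq2 (0.0456). In lung no library exceeded 0.617 CPM, and the lung change did not pass (adjusted p = 0.189) except without lung KO 1 (0.0333) and by DESeq2 (0.042). Twist2 had no count in any liver library and at most 0.557 CPM elsewhere, and antisense Gm29100 covers 46.53% of its exon bases.

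The zinc finger homeobox genes Zeb1 and Zeb2 showed small shifts. Zeb1 had 325, 257 and 293 CPM in KO lung against 197, 204 and 191 CPM in Control (log2 change 0.56, SE 0.141, adjusted p = 0.0236). Its heart levels were 252 and 248 CPM in KO and 177 and 146 CPM in Control (0.63, SE 0.173, adjusted p = 0.0209). Neither pair of groups overlapped, but the lung call was lost without lung KO 1 or 3 or any 1 lung Control (adjusted p up to 0.0848), and the heart call without either KO library or heart Control 2 (up to 0.177). Zeb2 had 40.2 and 34.8 CPM in KO heart against 22.8 and 23.7 CPM in Control (0.69, SE 0.138, adjusted p = 0.00371). In liver and lung the Zeb2 groups overlapped. The heart change of Zeb2 exceeded that of liver by 0.76 log2 units (SE 0.176, adjusted p = 0.0172) and that of lung by 0.85 (SE 0.176, adjusted p = 0.013), differences that were lost when heart KO 1 or either heart Control was left out (adjusted p up to 0.0739 and 0.0597).

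**Figure D3:**
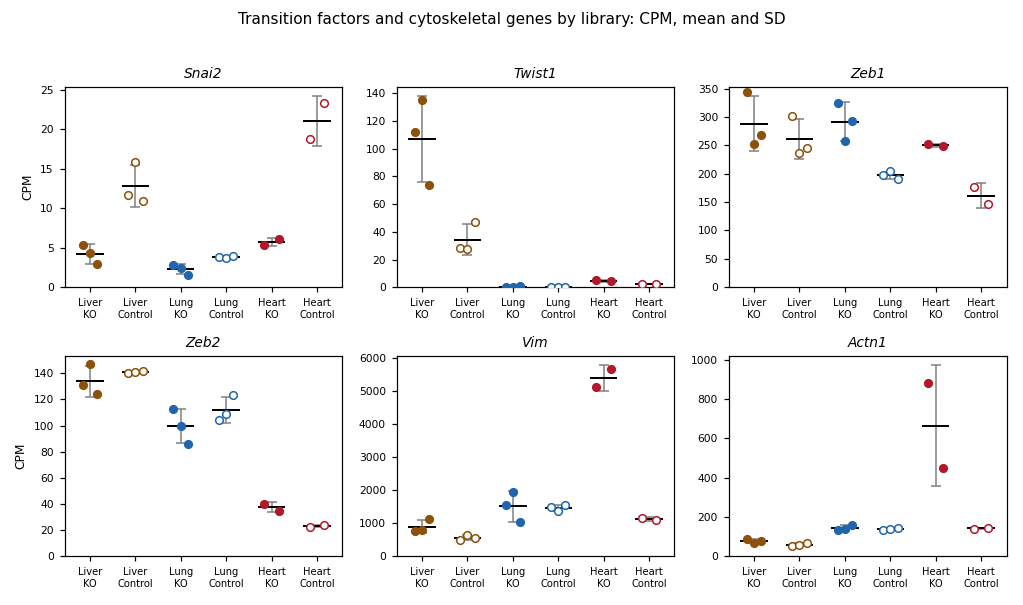
Levels of 4 transition factors and of the cytoskeletal genes Vim and Actn1 in CPM per library. Points are libraries (filled KO, open Control), lines are group means and bars are SD. Snai2 is lower in the KO groups of liver and heart, Twist1 is highest in KO liver, and Vim and Actn1 are highest in KO heart.

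Of the 11 cytoskeletal genes, 4 rose in liver, 3 in lung and 5 in heart and none fell, with median log2 changes of 0.55, 0.26 and 0.84. Acta2, Tagln and Cnn1 did not pass in any tissue. Vim encodes vimentin, the intermediate filament protein of mesenchymal and endothelial cells. In heart it had 5108 and 5677 CPM in KO against 1170 and 1100 CPM in Control (log2 change 2.25, SE 0.274, adjusted p = 0.000153). In liver it had 773, 807 and 1118 CPM in KO against 500, 637 and 573 CPM in Control (0.66, SE 0.215, adjusted p = 0.0458). Both pairs of groups were separate, but the liver call sat at the threshold and was lost in 11 of the 16 fits that left out 1 library (adjusted p up to 0.167). In lung the groups overlapped (0.04, SE 0.214, adjusted p = 0.954). The heart change exceeded that of liver by 1.59 log2 units (SE 0.341, adjusted p = 0.0115) and that of lung by 2.21 (SE 0.343, adjusted p = 0.00256), of which the first was lost without either heart Control (up to 0.0537).

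Actn1, the alpha-actinin that crosslinks actin at adhesions, rose in heart and passed in neither liver nor lung. Heart had 882 and 447 CPM of Actn1 in KO against 141 and 146 CPM in Control (log2 change 2.21, SE 0.244, adjusted p = 8.02e-05). The KO libraries differ from each other, yet both lie above both Controls. The heart change exceeded the liver change by 1.82 log2 units (SE 0.305, adjusted p = 0.00283) and the lung change by 2.16 (SE 0.306, adjusted p = 0.00172), and both differences held whichever library was left out. Liver Actn1 did not pass (0.39, SE 0.192, adjusted p = 0.18) except without heart KO 1 (0.0332) or heart KO 2 (0.0351).

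Tpm4, another tropomyosin, had 1065 and 1065 CPM in KO heart against 689 and 499 CPM in Control (log2 change 0.84, SE 0.268, adjusted p = 0.0414). Its call was lost when any 1 heart library was left out (adjusted p up to 0.264). Cnn2, a calponin of non-muscle cells, had 74.4, 113 and 147 CPM in KO lung against 77.7, 60.7 and 57.6 CPM in Control (0.77, SE 0.221, adjusted p = 0.0464). Here the groups overlapped, since lung KO 1 lay below lung Control 1, and the call was lost in 11 of the 16 fits without 1 library (up to 0.194) and in lung fitted alone (0.0683). Liver Cnn2 did not pass (-0.42, SE 0.219, adjusted p = 0.202), and the lung change exceeded it by 1.19 log2 units (SE 0.311, adjusted p = 0.0366), which was lost in 10 of the 16 fits (up to 0.0995).

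Myl9, a regulatory light chain of smooth muscle and non-muscle myosin, had 2.67, 2.64 and 13.3 CPM in KO liver against 2.64, 1.36 and 2.07 CPM in Control (log2 change 1.60, SE 0.502, adjusted p = 0.0382). The lowest KO library was level with the highest Control. That call rests on liver KO 3, and without it the change was 0.38 log2 units with an adjusted p of 0.342. It was also lost without any 1 liver or heart Control and in liver fitted alone (adjusted p = 0.145).

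Acta2, smooth muscle actin, a standard marker of contractile cells, passed in no tissue. It had 187 and 235 CPM in KO heart against 100 and 102 CPM in Control (log2 change 1.07, SE 0.899, adjusted p = 0.446), and 6.94, 14.8 and 14.8 CPM in KO lung against 23.9, 23.5 and 27.8 CPM in Control (-1.04, SE 0.749, adjusted p = 0.454). Liver had 1.03, 3.02 and 21.6 CPM in KO against 4.37, 0.783 and 1.43 CPM in Control (1.93, SE 0.819, adjusted p = 0.12). Heart and lung groups did not overlap and differed in opposite directions. In liver they overlapped, with liver KO 3 the highest. With each tissue fitted alone, the heart difference was 1.07 with an adjusted p of 0.00493 and the lung difference -1.02 with an adjusted p of 0.0466. Without liver KO 1 the liver difference passed (2.45, adjusted p = 0.0277), as did that of Tpm2 (1.94, adjusted p = 0.0288).

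The other contractile markers were low. Cnn1, calponin of smooth muscle, had 4.62 and 6.4 CPM in KO heart and 3.02 and 2.24 CPM in Control, and at most 2.58 CPM in any lung or liver library. Tagln, transgelin, never exceeded 1.16 CPM. Tagln shares 62.42% of its exon bases with the antisense gene Gm48529, which held 27 to 71 counts per library where Tagln held 8 to 45. Since the strand setting of the counting is unknown here, the level of Tagln is uncertain. Tpm2, a muscle tropomyosin, had 42.3 and 52.2 CPM in KO heart and 39.6 and 30.2 CPM in Control and did not pass (0.44, SE 0.674, adjusted p = 0.704).

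All 8 S100, galectin and annexin genes rose in heart, while 4 rose in liver and 1 in lung, where 10.2%, 9.54% and 4.35% of all tested genes rose. Of the 8, S100a4 passed the filter on low counts only through KO heart, so its heart call adds no independent support. The median log2 change of the 8 was 2.5 in heart, 0.60 in liver and 0.56 in lung. S100 proteins are small calcium-binding proteins, annexins bind membranes in the presence of calcium, and galectins bind beta-galactosides. The 4 S100 members lie on the plus strand of chromosome 3 (GRCm38), with S100a4 at 90603771 to 90606045, S100a6 at 90612882 to 90624181, S100a11 at 93520488 to 93526287 and S100a10 at 93555080 to 93564643.

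Lgals3, galectin 3, was close to absent from Control heart. It had 17.3 and 16.5 CPM in KO heart against 0.406 and 0.582 CPM in Control (log2 change 5.08, SE 0.542, adjusted p = 6.43e-05). In KO liver it had 6.51, 7.16 and 6.89 CPM against 3.95, 4.8 and 9.48 CPM in Control, and in KO lung 7.3, 22.6 and 12.4 CPM against 14.3, 12.4 and 13.2 CPM in Control. Groups overlapped in liver and lung, and KO heart reached a level within the range of the lung libraries. The heart change exceeded the liver change by 4.91 log2 units (SE 0.632, adjusted p = 0.00051) and the lung change by 5 (SE 0.63, adjusted p = 0.000777).

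Lgals1, galectin 1, had 244 and 288 CPM in KO heart against 21.3 and 19.7 CPM in Control (log2 change 3.70, SE 0.389, adjusted p = 6.12e-05). Liver was high in both groups, with 207, 158 and 119 CPM in KO and 107, 126 and 92.3 CPM in Control. Lung was low, with 7.35, 18.4 and 17.1 CPM in KO and 10.5, 6.82 and 7.11 CPM in Control. Liver and lung groups overlapped and did not pass, though lung did without lung KO 1 (1.13, adjusted p = 0.00952). The heart change of Lgals1 exceeded that of liver by 3.12 log2 units (SE 0.463, adjusted p = 0.00129) and that of lung by 2.89 (SE 0.468, adjusted p = 0.00332).

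Anxa1, an annexin known for its part in resolving inflammation, had 230 and 214 CPM in KO heart against 42.5 and 41.5 CPM in Control (log2 change 2.40, SE 0.28, adjusted p = 0.000115). Liver and lung libraries lay between 22.8 and 57.4 CPM in all groups. The heart change exceeded that of liver by 2.35 log2 units (SE 0.349, adjusted p = 0.00132) and that of lung by 2.5 (SE 0.35, adjusted p = 0.00159). Anxa2, the partner of S100a10, had 1321 and 1267 CPM in KO heart against 338 and 354 CPM in Control (1.90, SE 0.233, adjusted p = 0.000157). In liver it had 534, 487 and 336 CPM in KO against 244, 229 and 215 CPM in Control (0.98, SE 0.186, adjusted p = 0.00211). Both pairs of Anxa2 groups were separate, while lung groups overlapped (0.34, SE 0.184, adjusted p = 0.299). Heart exceeded lung in the change of Anxa2 by 1.56 log2 units (SE 0.293, adjusted p = 0.00768), and its excess over liver, 0.93 (SE 0.292), did not pass (adjusted p = 0.0679).

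S100a11 followed the pattern of Anxa2. Heart had 133 and 148 CPM in KO against 52.8 and 53.8 CPM in Control (log2 change 1.40, SE 0.219, adjusted p = 0.000775). Liver had 50.3, 42.8 and 35.4 CPM in KO against 22.5, 23 and 20.8 CPM in Control (0.95, SE 0.178, adjusted p = 0.0019). The groups overlapped in lung, and the heart change exceeded the lung change by 1.17 log2 units (SE 0.279, adjusted p = 0.0248), a difference lost without lung Control 1 or any 1 heart library (adjusted p up to 0.0958). S100a6 had 274 and 392 CPM in KO heart against 61.3 and 48 CPM in Control (2.61, SE 0.734, adjusted p = 0.0239). Its liver levels were 7.96, 3.1 and 32 CPM in KO against 1.66, 1.6 and 1.88 CPM in Control (3.06, SE 0.664, adjusted p = 0.00514). Liver KO 3 is the highest, and without it the liver change was 1.68 log2 units and still passed. The heart call was lost when any 1 of the 4 heart libraries was left out (adjusted p up to 0.151).

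S100a4, which is also called fibroblast-specific protein and is expressed by fibroblasts and leukocytes, was counted in heart KO libraries at 1.47 and 2.28 CPM and in heart Controls at 0.058 and 0 CPM. Summed over the group these are 149 counts in KO and 2 in Control, a ratio of 65.7 with a 95% counting interval of 17.9 to 548, which covers counting error only. The test passed (adjusted p = 0.00445), but not without heart Control 2 (0.0551). Lung held 7 counts in KO and 2 in Control over 3 libraries each, and liver held 1 in each, and no difference was detectable with these counts. With so few counts elsewhere, S100a4 passed the filter on low counts only through KO heart, the group where it was high. The predicted gene Gm42674 shares 51.71% of the exon bases of S100a4 on the same strand and had 0 counts in every library. How reads in the shared bases were counted is unknown here, so the level of S100a4 is uncertain in every group.

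**Figure D4:**
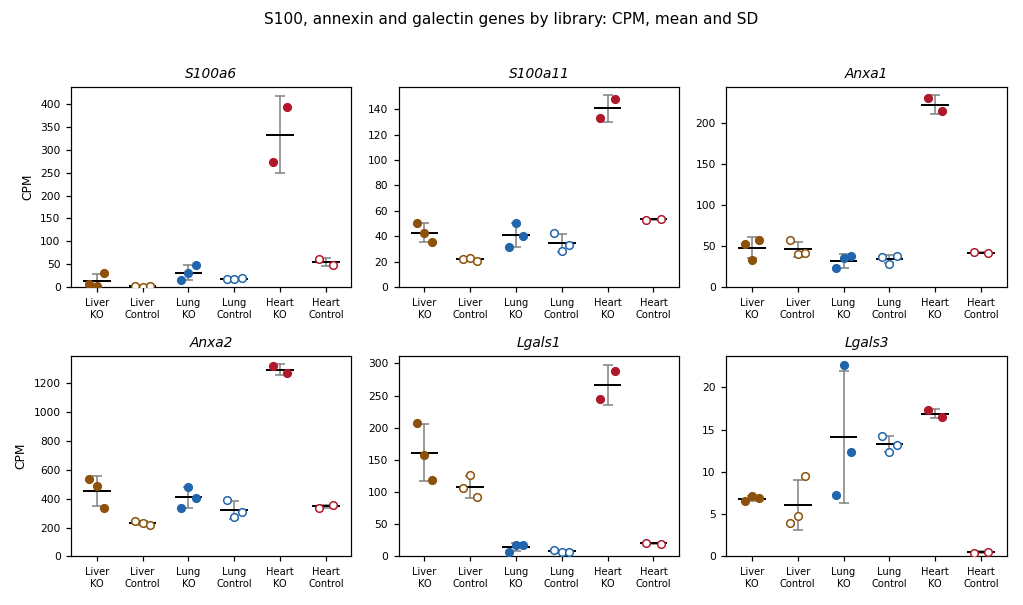
Levels of 6 S100, annexin and galectin genes in CPM per library. Points are libraries (filled KO, open Control), lines are group means and bars are SD. KO heart lies above Control heart in all 6, while lung KO and Control overlap in all 6.

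Other cell types' markers moved in the heart samples where the S100, galectin and annexin genes rose. Of 18 tested leukocyte markers, 9 were higher in KO heart, and their summed level was 202 to 327 CPM in KO against 30.3 to 61.5 CPM in Control, where Cd3e and Cd3g were at 0. The pan-leukocyte gene Ptprc, which encodes the CD45 sorted against, had 7.12 to 7.58 CPM in KO and 1.31 to 2 CPM in Control heart. Itgam averaged 5.24 ± 1.32 CPM in KO and 0.227 ± 0.00739 CPM in Control (SD, n = 2 each, log2 change 4.51, adjusted p = 0.00162). Of 14 epithelial and hepatocyte markers 6 were higher in KO heart, with sums of 101 to 157 CPM in KO and 2.96 to 4.85 CPM in Control and with Serpina1a at 0 in both, Apoa2 at 0 in KO and Fgb at 0 in Control. The surfactant gene Sftpc averaged 63.9 ± 25.3 CPM in KO and 1.12 ± 0.264 CPM in Control heart (5.83, adjusted p = 0.00034). The part of these cells in the heart changes of Lgals3, S100a4 and the other members was not tested. In lung the leukocyte sum was lower in KO (121 to 259 CPM, against 517 to 587 CPM). Most of it in Control was Lyz2, at 432 to 534 CPM against 44.9 to 164 CPM in KO, the 1 marker of the list that passed there. Ptprc overlapped between the lung groups, at 3.69 to 7.86 CPM in KO and 4.85 to 10.1 CPM in Control.

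Among the 5 adhesion and matricellular genes, 2 rose in liver, 1 in lung and 3 in heart, and none fell. Their median log2 changes were 0.40, 0.27 and 2. Ccn2, given above, was the 1 that rose in all. Cd44, the hyaluronan receptor, had 137 and 80.6 CPM in KO heart against 19.1 and 15.3 CPM in Control (log2 change 2.66, SE 0.413, adjusted p = 0.000753). In liver and lung its groups overlapped, with lung at 43.8 to 67.8 CPM and liver at 4.47 to 11.5 CPM over all libraries. The heart change of Cd44 exceeded that of liver by 2.77 log2 units (SE 0.52, adjusted p = 0.00552) and that of lung by 2.39 (SE 0.509, adjusted p = 0.0146). The excess over lung was lost without heart KO 1 or either heart Control (adjusted p up to 0.0783).

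Cdh2, N-cadherin, stayed low. Heart had 5.75 and 3.17 CPM in KO against 1.45 and 0.776 CPM in Control (log2 change 2, SE 0.611, adjusted p = 0.0351), a call lost without heart KO 1 or either heart Control (adjusted p up to 0.22). Its heart change exceeded that of liver by 2.92 log2 units (SE 0.789, adjusted p = 0.0354), which was lost in 6 of the 16 fits without 1 library and in the separate fit of heart and liver. Cdh11, a cadherin of mesenchymal cells, had 68.6 and 41.2 CPM in KO heart against 13.7 and 28.7 CPM in Control. Its groups did not overlap, and the change did not pass (1.37, SE 0.502, adjusted p = 0.072), but did without liver Control 2 (0.0392), in heart fitted alone (0.0428), with no filter on low counts (0.0417) and by DESeq2 (0.0329).

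Ccn1, the relative of Ccn2 also known as Cyr61, changed in liver. It had 222, 110 and 273 CPM in KO liver against 69.3, 17.9 and 71.9 CPM in Control (log2 change 1.93, SE 0.467, adjusted p = 0.0101), and in liver fitted alone the adjusted p was 0.0503. In heart Ccn1 had 614 and 482 CPM in KO against 690 and 880 CPM in Control (-0.52, SE 0.552, adjusted p = 0.558). So Ccn2 rose in heart where Ccn1 did not pass. Of 18 immediate early and dissociation genes, which tissue digestion is known to induce, 2 (Nr4a1 and Ier3) were higher in KO liver and none passed in lung or heart. In liver 9.54% of all tested genes were higher. The median log2 change of the 18 was 1.14 in liver, -0.19 in lung and -0.52 in heart, against 0.02, -0.02 and 0.01 for all tested genes. Nr4a1 averaged 426 ± 169 CPM in KO and 73 ± 48.4 CPM in Control liver (SD, n = 3 each). The part of these genes' induction in the liver change of Ccn1 was not tested.

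All 4 matrix-processing genes rose in liver, 3 rose in heart and 1 in lung, with median log2 changes of 1.96, 1.83 and 0.50. Lox and Loxl2 encode amine oxidases that crosslink collagen and elastin. Lox had 5.74, 4 and 15.1 CPM in KO liver against 2.13, 0.238 and 1.37 CPM in Control (log2 change 2.7, SE 0.548, adjusted p = 0.00325), and its adjusted p was 0.0556 in liver fitted alone. The liver change was 1.93 without liver KO 3 and 3.35 without liver Control 1. In heart it had 84.5 and 81.9 CPM in KO against 10.9 and 11.6 CPM in Control (2.89, SE 0.632, adjusted p = 0.00646). Both heart KO libraries were far above both Controls, and the call missed the threshold without either Control (adjusted p up to 0.0608).

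Loxl2 had 223, 204 and 98.8 CPM in KO liver against 52, 44.5 and 39.3 CPM in Control (log2 change 1.95, SE 0.298, adjusted p = 0.000423). Its heart levels were 39.7 and 28.6 CPM in KO and 10.1 and 9.34 CPM in Control (1.81, SE 0.369, adjusted p = 0.00419). In lung the groups overlapped, at 8.42, 8.22 and 4.47 CPM in KO and 11.5, 7.76 and 12.1 CPM in Control (-0.57, SE 0.3, adjusted p = 0.286). The lung change lay below the liver change by 2.52 log2 units (difference -2.52, SE 0.421, adjusted p = 0.00293), and the heart change lay above the lung change by 2.38 (SE 0.474, adjusted p = 0.0108), the second lost without heart KO 1 or heart Control 2 (adjusted p up to 0.0546). Serpinh1, the collagen chaperone of the endoplasmic reticulum, had 537, 500 and 397 CPM in KO liver against 356, 229 and 250 CPM in Control (0.78, SE 0.254, adjusted p = 0.0451). The groups did not overlap, but that call was lost in 9 of the 16 fits without 1 library (adjusted p up to 0.15).

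Of the 7 fibroblast and mural genes, Pdgfra, Thy1 and Fap rose in liver, and none passed in lung or heart. Their median log2 change was 1.74 in liver, -0.83 in lung and -0.09 in heart. In bulk RNA of sorted cells, fewer cells of a type and less RNA per cell cannot be told apart. Thy1, a surface glycoprotein of fibroblasts, had 21.2, 34.3 and 16.9 CPM in KO liver against 2.9, 2.83 and 2.98 CPM in Control (log2 change 3.05, SE 0.61, adjusted p = 0.00292). Pdgfra, the receptor that marks fibroblasts, had 3.9, 3.07 and 14.8 CPM in KO liver against 0.949, 0.987 and 1.61 CPM in Control (2.61, SE 0.498, adjusted p = 0.00217). Fap, a serine protease of activated fibroblasts, had 0.935, 1.62 and 1.12 CPM in KO liver against 0.501, 0.272 and 0.273 CPM in Control (1.79, SE 0.331, adjusted p = 0.00173). All 3 separated the groups, and all 3 calls held whichever library was left out. Of them Pdgfra was highest in liver KO 3, without which its change was 1.56.

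Pdgfra and Fap differed between tissues. The liver change of Pdgfra was above that of lung (lung minus liver -3.05, SE 0.659, adjusted p = 0.014) and that of heart (heart minus liver -2.86, SE 0.727, adjusted p = 0.0274). Without liver KO 3 these were -1.99 and -1.81. For Fap the differences were -1.92 (SE 0.439, adjusted p = 0.0191) and -2.59 (SE 0.485, adjusted p = 0.0055). The heart-minus-liver difference of Pdgfra was lost in 6 of the 16 fits without 1 library (adjusted p up to 0.09) and in the separate fit of heart and liver, and the lung-minus-liver difference of Fap without liver Control 2 or 3 (up to 0.0546).

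Liver KO 3 was high in genes of pericytes and smooth muscle. Notch3, the Notch receptor of mural cells, had 0.193, 0.812 and 10.9 CPM in KO liver against 2.48, 0.238 and 0.729 CPM in Control, and Pdgfrb, the pericyte receptor, had 0.29, 0.261 and 4.91 CPM against 0.843, 0.409 and 1.18 CPM. Neither passed. Liver KO 3 was the highest of the 6 liver libraries for both, and the other KO libraries lay below all Controls for Pdgfrb. Without liver KO 3 the liver change of Pdgfrb was -1.57 with an adjusted p of 0.0282, against 1.14 with all libraries, so its direction turned. Postn, periostin of activated fibroblasts, likewise passed in liver only without that library (-2.47, adjusted p = 0.0383).

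In lung, Notch3, Postn and Pdgfrb were lower in each KO library than in any Control, and none of the 3 passed. The summed pericyte and smooth muscle markers given below were higher in the KO libraries, chiefly through Rgs5 and Smtn. The median log2 changes of those lists were -0.76 and -0.30. Notch3 had 2.86, 3.68 and 3.59 CPM in KO lung against 13.4, 20.1 and 16.2 CPM in Control (log2 change -2.30, SE 0.883, adjusted p = 0.135). Postn had 8.18, 10.3 and 3.06 CPM in KO lung against 26.2, 26.8 and 20.9 CPM in Control (-1.78, SE 0.546, adjusted p = 0.0608). Pdgfrb had 8.42, 8.87 and 11 CPM in KO lung against 21.5, 15.5 and 13.2 CPM in Control (-0.83, SE 0.657, adjusted p = 0.506). With lung fitted alone they passed, Notch3 with an adjusted p of 0.00127, Postn with 0.0226 and Pdgfrb with 0.0443. The same was so when liver KO 3 was left out of the fit of all tissues (adjusted p = 0.00606, 0.00472 and 0.0404). Postn in lung also passed without liver KO 1 (0.0387) or 2 (0.0403) and with no filter on low counts (0.0193).

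In heart the mural genes were abundant in both groups. Notch3 had 60.4 and 81.1 CPM in KO heart against 140 and 138 CPM in Control (log2 change -0.98, SE 0.998, adjusted p = 0.539), and Postn 79.5 and 87.5 CPM in KO against 29.7 and 46.4 CPM in Control (1.13, SE 0.647, adjusted p = 0.246). In heart fitted alone both passed, Notch3 with an adjusted p of 0.00929 and Postn with 0.0124. Pdgfrb (71.1 and 61.1 CPM in KO, 61.7 and 78.9 CPM in Control) and Des, the muscle intermediate filament desmin (28.8 and 35.9 CPM in KO, 25.9 and 30.9 CPM in Control), overlapped between groups.

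Markers of mural and stromal cells that are not among the 41 genes moved as well. The sum of 10 stellate cell markers was 844 to 1194 CPM in KO liver and 233 to 284 CPM in Control, and 4 of the 10 were higher. Most of that sum was Hgf, at 689 ± 120 CPM in KO and 107 ± 20.4 CPM in Control, and Ecm1, at 267 ± 66.7 CPM in KO and 136 ± 12.8 CPM in Control (SD, n = 3 each). The stellate sum was not higher in KO liver alone. It was 842 to 1494 CPM in KO and 194 to 300 CPM in Control lung, and 466 to 473 CPM in KO and 159 to 196 CPM in Control heart. Ecm1 averaged 1133 ± 318 CPM in KO lung and 360 ± 9.48 CPM in KO heart. The sum of 16 fibroblast markers was 287 to 374 CPM in KO and 73.5 to 112 CPM in Control liver, with 3 higher and 2 lower. The median log2 change of the 16 was -0.52, and most of the sum in KO was Pi16, at 122 ± 52 CPM in KO and 5.04 ± 2.94 CPM in Control, and Col6a3, at 142 ± 58.5 CPM in KO and 26.3 ± 12.7 CPM in Control. Col1a1 was at 1.42 to 8.07 CPM in KO against 7.15 to 9.54 CPM in Control. Of 14 pericyte markers, 3 were higher and 1 lower in KO liver, with sums of 557 to 1040 CPM in KO and 316 to 334 CPM in Control, of which Abcc9 made 597 ± 202 CPM in KO and 133 ± 12.2 CPM in Control. No marker of these 3 lists was at 0 in a liver group. The 11 smooth muscle markers summed to 264 to 365 CPM in KO and 271 to 393 CPM in Control liver with none past the threshold, and of these Myh11 was at 1.13 to 26.5 CPM in KO and 0.579 to 5.88 CPM in Control. Their part in the liver changes of Pdgfra, Thy1 and Fap was not tested.

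In lung, 1 of 14 pericyte markers was higher and 1 lower, and the median log2 change of the 14 was -0.76. Their sums were 132 to 270 CPM in KO against 72.6 to 88.1 CPM in Control. Most of the KO sum was Rgs5 (86.8 to 219 CPM in KO, 14.9 to 20.3 CPM in Control). The 11 smooth muscle markers summed to 174 to 228 CPM in KO and 140 to 145 CPM in Control lung, with a median log2 change of -0.30. Among them Smtn rose (124 ± 11.4 CPM in KO, 69.1 ± 5.77 CPM in Control, adjusted p = 0.0032) and made most of the KO sum. None of the 16 fibroblast markers passed in lung. In heart the pericyte sum was 405 to 542 CPM in KO against 781 to 888 CPM in Control, with 1 marker higher and 3 lower, and the fibroblast sum 2942 to 3759 CPM against 2260 to 2585 CPM, with 1 higher (Pi16, 627 ± 142 CPM in KO and 118 ± 5.56 CPM in Control) and 1 lower. Col1a1 was at 318 to 319 CPM in KO and 86 to 128 CPM in Control heart. The part of these cells in the values of Notch3, Postn and Acta2 was not tested. Of 12 defining endothelial genes 6 fell in liver, 5 in lung and 6 in heart and 1 (Emcn, in lung) rose, with sums lower in every KO library than in any Control of its tissue.

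**Figure D5:**
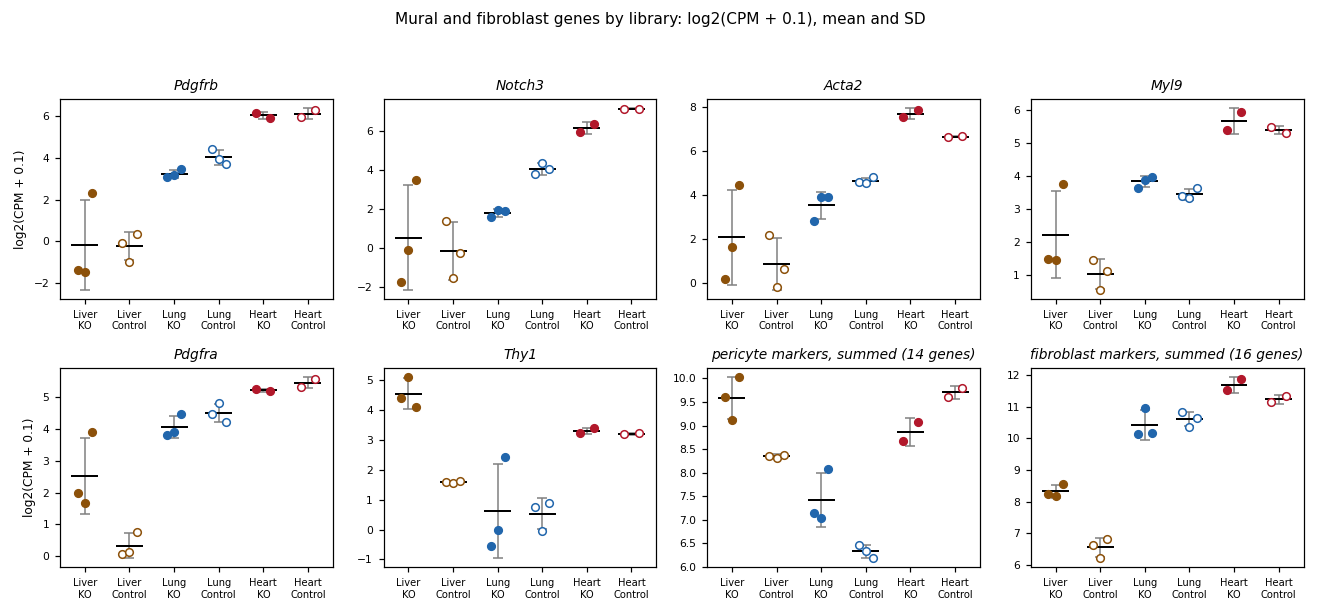
Levels of 6 mural, fibroblast and contractile genes and the summed levels of the pericyte and fibroblast marker lists per library, as log2(CPM + 0.1). Points are libraries (filled KO, open Control), lines are group means and bars are SD. In Pdgfrb, Notch3, Acta2 and Myl9 liver KO 3 lies well above the other liver libraries.

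Control endothelium of the 3 tissues differed in most of these genes, as it did in many others. Lung Control was higher than liver Control for 23 of the 41 and lower for 9 (24.6% and 22.4% of all tested genes, 47% in all). Heart Control was higher than liver Control for 26 and lower for 7 (23.8% and 23.9% of all, together 47.6%). Heart Control was higher than lung Control for 18 and lower for 3 (13.5% and 16.1% of all, together 29.5%), which became 9 and 3 without heart Control 1, 10 and 2 without heart Control 2, and 10 and 3 without lung Control 3. All 7 fibroblast and mural genes were higher in heart than in liver Control, with a median log2 difference of 5.23, and 6 of the 7 were higher in lung than in liver Control. Of these the call of Thy1 in heart against liver (log2 difference 1.65, adjusted p = 0.0446) was lost in 10 of the 16 fits without 1 library (adjusted p up to 0.124). The fibroblast markers summed to 2260 to 2585 CPM in heart Control, 1317 to 1824 CPM in lung Control and 73.5 to 112 CPM in liver Control. The pericyte markers summed to 781 to 888 CPM in heart, 72.6 to 88.1 CPM in lung and 316 to 334 CPM in liver Control. The part of such cells in these differences was not tested.

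Compared on a scale per length (RPKM, the CPM divided by the kilobases of exon), the most abundant members were filament and matrix genes. In heart, Vim was the highest member in KO at 1137 ± 84.9 RPKM and the third in Control at 239 ± 10.5 RPKM (SD, n = 2 each), below Ccn1 at 389 ± 66.4 and Tpm4 at 270 ± 61. In liver, Ccn2 was the highest in KO at 243 ± 57.2 RPKM and ranked 9 of 41 in Control at 32.6 ± 15.1 RPKM, where Tpm4 led at 219 ± 51.5, followed by Vim at 120 ± 14.4 and Lgals1 at 120 ± 18.6 (SD, n = 3 each). In lung, Vim led in both, at 319 ± 96.7 RPKM in KO and 311 ± 18.4 RPKM in Control. Vim, Lgals1 and Serpinh1 in Control liver lay within 1 SD of each other, and so did the levels of Vim in the lung groups. Lgals1 ranked 4 in KO heart at 295 ± 35 RPKM and 15 in Control heart at 22.7 ± 1.23 RPKM.

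Among Controls, liver held the most Snai1, Twist1, Zeb1 and Zeb2, and heart the most Snai2. Twist1 averaged 2.08 ± 0.0725 CPM in heart Control, 0.111 ± 0.0731 CPM in lung Control and 34.4 ± 11 CPM in liver Control. It was lower in lung than in liver by the fit (log2 difference -8.19, SE 0.542, adjusted p = 4.3e-08, and -8.88 without lung Control 1) and in heart than in liver (-4.05, SE 0.474, adjusted p = 1.27e-05). Snai2 was higher in heart than in liver Control (0.72, SE 0.273, adjusted p = 0.0422), a call lost without liver Control 1 or 3, lung Control 1 or either heart Control (adjusted p up to 0.244) and with no filter on low counts. It was also higher in heart than in lung Control (2.47, SE 0.279, adjusted p = 1.85e-05). Zeb2 was lower in heart than in liver Control (-2.60, SE 0.138, adjusted p = 2.02e-08). Twist2 had 50 counts over the lung Controls and none over the liver Controls. With liver set to a floor of 3 counts over the group the ratio was 14.8, and the lower 95% counting limit without that floor was 11.6-fold. Twist2 had 12 counts over the heart Controls, a ratio of 5.68 at that floor, with a lower limit of 3.95-fold without it.

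The knockout changes themselves differed between tissues for some members. Against liver, the heart change was higher for 8 of the 41 and lower for 2 (4.62% and 3.70% of all tested genes, together 8.32%). Against lung, the heart change was higher for 10 and lower for none (3.83% and 2.57% of all, together 6.4%). The lung change was higher than that of liver for 1 and lower for 3 (3.13% and 3.08% of all, together 6.2%). Without heart Control 1 or 2 the first of these counts, taken in both directions, was 6 in place of 10, and without heart KO 1 or heart Control 2 the second was 6 in place of 10. Without liver Control 3 the last was 2 in place of 4. These comparisons share libraries. Zeb2, Vim, Actn1, Lgals1, Lgals3, Anxa1 and Cd44 had a higher change in heart than in each of the other tissues. Of these, Actn1, Lgals1, Lgals3 and Anxa1 kept both differences whichever library was left out.

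Genes related to the members were read for comparison, in lists also chosen with earlier results of these data known. Of all tested genes, 9.54% rose and 9.87% fell in liver, 4.35% and 4.11% in lung, and 10.2% and 9.09% in heart. These shares stand beside the counts of every list given here. Of 36 further cytoskeletal genes known as targets of serum response factor and its cofactors, 6 rose and 3 fell in liver, 5 rose in lung and 11 rose in heart, and none fell in lung or heart. Their median log2 changes were 0.30, 0.15 and 0.50. Mylk, the myosin light chain kinase, averaged 292 ± 190 CPM in KO and 21.4 ± 3.07 CPM in Control liver (SD, n = 3 each, log2 change 3.78, adjusted p = 4.01e-05). Cald1, the actin-binding caldesmon, averaged 287 ± 67.3 CPM in KO and 109 ± 4.53 CPM in Control lung (1.39, adjusted p = 0.000619). In heart Palld, the actin scaffold palladin, averaged 92.1 ± 0.725 CPM in KO and 17.4 ± 0.766 CPM in Control (SD, n = 2 each, 2.41, adjusted p = 0.000347).

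Other members of the S100, annexin and galectin families were counted beside the 8 described, without a test of the difference. Of 9 tested S100 genes, 3 rose and 1 fell in liver, none passed in lung, and S100b alone rose in heart. S100b averaged 2.68 ± 0.369 CPM in KO and 0.323 ± 0.17 CPM in Control heart (log2 change 3.04, adjusted p = 0.0017). S100a8 and S100a9, which neutrophils express strongly, rose in liver with wide spread, S100a9 averaging 22.3 ± 27.9 CPM in KO and 0.443 ± 0.162 CPM in Control. Of 9 tested annexins, 1 rose and 2 fell in liver, 1 rose in lung and 4 rose in heart. Anxa5 fell to 244 ± 52 CPM in KO liver, against 429 ± 54.1 CPM in Control (-0.81, adjusted p = 0.00285), and rose to 437 ± 7.4 CPM in KO heart, against 265 ± 13.3 CPM in Control (0.72, adjusted p = 0.0209). The list of other galectins had 6 tested genes, among them Lgals3bp, which encodes a galectin-binding protein and is no galectin itself. Lgals8 and Lgals3bp rose in liver, none passed in lung, and Lgals3bp alone rose in heart.

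A list of 47 tested ligands, receptors, proteases and matrix genes of the transition had 10 higher and 3 lower in liver, 10 higher and 1 lower in lung, and 20 higher and 3 lower in heart. Its median log2 changes were 0.22, 0.10 and 0.66. Mmp14, a membrane-bound matrix metalloproteinase, averaged 278 ± 48.4 CPM in KO and 30.2 ± 1.41 CPM in Control heart (log2 change 3.20, adjusted p = 1.17e-06). Timp1, an inhibitor of metalloproteinases, averaged 63.7 ± 22 CPM in KO and 1.98 ± 0.285 CPM in Control heart (5.01, adjusted p = 3.48e-05). Acvrl1, the endothelial receptor ALK1 of the transforming growth factor beta family, fell to 1390 ± 154 CPM in KO lung, against 3055 ± 335 CPM in Control (-1.14, adjusted p = 0.000253).

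Markers of further cell types completed the comparison. Of 8 platelet markers 3 rose in liver, 3 in lung and 2 in heart, with sums of 179 to 262 CPM in KO against 35.5 to 47.7 CPM in Control liver, and their part in the members' changes was not tested. Of 12 cardiomyocyte markers 5 fell in heart, with sums of 153 to 180 CPM in KO against 207 to 327 CPM in Control, 1 rose in liver, and 1 rose and 1 fell in lung. Of 8 mesothelial markers Krt19 alone rose, in heart. Of the epithelial and hepatocyte markers 4 fell in liver and 3 in lung. Of the leukocyte markers 2 rose and 1 fell in liver, and Lyz2 fell in lung. Of 11 smooth muscle markers 1 rose in lung and 1 in heart. Of the stellate markers 1 rose and 1 fell in lung, and 3 rose in heart.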

How the data were processed

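RNA of sorted liver, lung and heart endothelial cells was sequenced in 16 libraries after a TruSeq kit, unstranded or stranded, per the labels' protocols, which do not say which kit made which library. FastQC 0.11.5, STAR 2.7.6a and GRCm38 are named in the submitters' processing notes. The authors deposited raw counts per gene in 1 table. Not given in the sources used here are the counting program, its strand setting and its annotation.

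Counts were tested with edgeR 4.0.16 (limma 3.58.1, R 4.3.3) by the quasi-likelihood test in 1 fit of 6 group means over all libraries, with TMM scaling (factors 0.916 to 1.07), the filterByExpr rule (minimum count 10, minimum total 15) and Benjamini-Hochberg adjustment over 19646 genes at 0.05, for 9 comparisons. CPM used effective library sizes, and RPKM the union of exons in GENCODE M21. The procedure was tested on simulated data. Of the genes deposited, 233 had no symbol and 147 shared one. Within groups, log expression correlated between libraries at 0.964 to 0.986, lowest for liver KO 3. Whether replicate numbers pair KO with Control samples within a tissue was not settled. Same-numbered deviations correlated at -0.0797 to 0.24 and differently numbered ones at -0.23 to 0.15. With 2 libraries per heart group, the heart values are equal and opposite by construction. Intervals on sums of counts cover counting error only, at the 95% level.

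The 41 genes and all lists were chosen with earlier results of these data known. Every gene is accounted for: those passing in a tissue with each library's value there, others by range or group values, and up to 4 genes per list with the smallest adjusted p. DESeq2 1.42.0, its size factors, no filter, a replicate block, fits of single tissues and leaving out each library were tried as alternatives, and, chosen after seeing the data, a block of libraries with 1 number and genotype across tissues. Promoters came from RefSeq (GRCm38.p6).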

Additional observations from a re-analysis of the deposited data

Results flagged for a closer look

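The results set out here are those in which the knockout change of a gene differed between tissues by the interaction test of edgeR's quasi-likelihood fit, with Benjamini-Hochberg adjustment over all tested genes. Each value is a difference of log2 changes. For lung minus liver the differences were Cnn2 1.19 (SE 0.311, adjusted p = 0.0366), Pdgfra -3.05 (SE 0.659, adjusted p = 0.014), Fap -1.92 (SE 0.439, adjusted p = 0.0191) and Loxl2 -2.52 (SE 0.421, adjusted p = 0.00293).

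For heart minus liver they were Zeb2 0.761 (SE 0.176, adjusted p = 0.0172), Vim 1.59 (SE 0.341, adjusted p = 0.0115), Actn1 1.82 (SE 0.305, adjusted p = 0.00283), Lgals1 3.12 (SE 0.463, adjusted p = 0.00129) and Lgals3 4.91 (SE 0.632, adjusted p = 0.00051), and further Anxa1 2.35 (SE 0.349, adjusted p = 0.00132), Cdh2 2.92 (SE 0.789, adjusted p = 0.0354), Cd44 2.77 (SE 0.52, adjusted p = 0.00552), Pdgfra -2.86 (SE 0.727, adjusted p = 0.0274) and Fap -2.59 (SE 0.485, adjusted p = 0.0055).

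For heart minus lung they were Zeb2 0.852 (SE 0.176, adjusted p = 0.013), Vim 2.21 (SE 0.343, adjusted p = 0.00256), Actn1 2.16 (SE 0.306, adjusted p = 0.00172), S100a11 1.17 (SE 0.279, adjusted p = 0.0248) and Lgals1 2.89 (SE 0.468, adjusted p = 0.00332), and further Lgals3 5 (SE 0.63, adjusted p = 0.000777), Anxa1 2.5 (SE 0.35, adjusted p = 0.00159), Anxa2 1.56 (SE 0.293, adjusted p = 0.00768), Cd44 2.39 (SE 0.509, adjusted p = 0.0146) and Loxl2 2.38 (SE 0.474, adjusted p = 0.0108).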

How the results depend on the processing

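Of 50 knockout calls, 34 held in all 16 fits that each left out 1 library (15 liver, 6 lung, 13 heart), and 16 were lost in at least 1. The count of members past the threshold ranged over those fits from 15 to 20 in liver (19 with all libraries), 6 to 11 in lung (8) and 15 to 24 in heart (23). For Controls it ranged from 27 to 33 for lung against liver, 26 to 33 for heart against liver and 12 to 24 for heart against lung. For differences between changes it ranged from 2 to 6 for lung minus liver, 6 to 13 for heart minus liver and 6 to 12 for heart minus lung. The lung-minus-liver count was 10 by DESeq2 and 7 with no filter on low counts, against 4, and the cause was not tested. The liver change of Pdgfrb ranged from -1.57 to 1.66 over the same fits and was below 0 only without liver KO 3 (adjusted p = 0.0282). Whether the numbers in the titles pair KO with Control samples was not settled (same-number correlations -0.051, 0.24 and 0.101 in liver, -0.0676, -0.0797 and 0.0328 in lung, 0.0465 in heart). Different numbers gave -0.23 to 0.15 in liver and -0.0722 to 0.119 in lung. In heart they gave -0.0465, which 2 libraries per group fix by construction. With the replicate block, counts were 16 in liver, 7 in lung and 22 in heart, and 4, 10 and 9 for the differences in the order above. Not past under it were Vim (adjusted p = 0.075), Myl9 (0.0853) and Serpinh1 (0.0692) in liver, Cnn2 in lung (0.108) and Tpm1 in heart (0.0539). Across tissues, deviations of libraries of 1 genotype were correlated, with Xist and Y-linked genes such as Ddx3y left out. Pairs with the same description number gave 0.0286 to 0.142 (14 pairs), and those with different numbers -0.142 to 0.0478 (28 pairs). Deviations were centred within groups, so the 2 ranges are not independent, and pairs with heart mirror each other by construction. Every library numbered 2 was male, so shared sex and a shared animal cannot be told apart. The description numbers thus give a hint from the data and not from the design. With these numbers as a replicate block across tissues, chosen after seeing the data, counts were 32, 30 and 21 for the Controls and 6, 11 and 13 for the differences. It moved Cdh2 in heart minus liver (adjusted p = 0.0643) and Thy1 in heart against liver Control (0.0817) out of the calls, and it added, among others, Snai1 in heart minus liver (2.10, adjusted p = 0.0115). DESeq2's size factors left every count as it was. A change of sign of a value past the threshold under neither setting was counted as unchanged. With 2 libraries per heart group, heart calls rest on little replication.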
